A study of Mus musculus with 12 samples.

Results

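Fibronectin and the matricellular glycoproteins were followed as 10 genes, Fn1, Tnc, Thbs1, Thbs2, Thbs3, Postn, Sparc, Spp1, Ecm1 and Tgfbi, chosen by name out of the 33246 genes of the counts table. All 10 passed the filter on low counts together with 14532 other genes. The cells were primary fibroblasts from the ears of male and female C57BL/6 mice aged 1 month, used at passage 2. In every group, 500000 cells were seeded on alginate hydrogels that carried RGD peptide (Arg-Gly-Asp, the tripeptide that integrins bind), and RNA was collected after 48 h. The 4 groups of 3 samples were the 2-kPa elastic, 20-kPa elastic, 2-kPa viscoelastic and 20-kPa viscoelastic gels. Elastic gels were crosslinked covalently and hardly relax under a held deformation, while the viscoelastic gels were crosslinked ionically with calcium and relax slowly, so the kind of gel and the kind of crosslinker cannot be told apart. The study calls the 3 samples of a group biological replicates, but the labels do not tie them to animals or cultures, so the p-values measure the spread between these samples.

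Fibronectin is a large glycoprotein that cells assemble into fibrils and hold through integrins. Matricellular proteins are secreted into the same matrix but mainly tune how cells attach to it, move through it and receive growth factors, and several of them are known for their roles in wound repair and fibrosis of the skin. Members are often named by their partners: osteopontin (Spp1) and TGFBI bind integrins, periostin (Postn) and SPARC bind collagen, and thrombospondin-1 (Thbs1) binds CD36 and CD47 and can release TGF-β from its latent form.

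Because the gels themselves offered cells the RGD tripeptide, the members whose own coding sequence spells it are shown first. In the GENCODE M21 annotation of GRCm38, the longest coding transcripts of 5 of the 10 genes, Fn1, Spp1, Tgfbi, Thbs1 and Thbs2, encode Arg-Gly-Asp, and those of Tnc, Thbs3, Postn, Sparc and Ecm1 do not. Among all 21583 coding genes read, 1565 (7.251%) encode it at least once. Each line gives 13 codons of the coding strand 5′ to 3′, with the Arg-Gly-Asp codons in capitals.
Fn1, residues 1614 to 1616, exon 30: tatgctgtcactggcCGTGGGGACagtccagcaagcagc
Fn1, residues 2181 to 2183, exon 40: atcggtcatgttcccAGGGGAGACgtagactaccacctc
Spp1, residues 145 to 147, exon 7: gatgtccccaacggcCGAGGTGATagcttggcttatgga
Tgfbi, residues 642 to 644, exon 15: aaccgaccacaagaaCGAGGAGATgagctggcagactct
Thbs1, residues 927 to 929, exon 18: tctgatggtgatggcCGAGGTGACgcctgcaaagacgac
Thbs2, residues 928 to 930, exon 18: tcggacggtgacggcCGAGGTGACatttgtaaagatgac
The capitals lie at chr1:71606746-71606754 and chr1:71597443-71597451 for Fn1 (minus strand), chr5:104439481-104439489 for Spp1, chr13:56637155-56637163 for Tgfbi and chr2:118122882-118122890 for Thbs1 (plus strand), and chr17:14671484-14671492 for Thbs2 (minus strand). The tripeptide in a sequence does not show that an integrin binds it.

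The samples held 36626221 to 43612804 counts, and levels below are counts per 1000000 (CPM) after TMM scaling. All 9 fibroblast markers were measured in every sample, with Col1a1 at 5686 to 6794 CPM, but so were genes of cartilage, the tissue that supports the ear. Of 5 chondrocyte markers, Acan, Col2a1, Col9a1 and Sox9 were present in all 12 samples (Col2a1 at 2396 to 3471 CPM), and Matn1 was at 0 in 5 samples. Summed over the 5 genes, the chondrocyte markers ran from 4372 to 5577 CPM on 2-kPa elastic gels, 4217 to 5333 on 2-kPa viscoelastic gels, 3972 to 4067 on 20-kPa elastic gels and 4085 to 5412 on 20-kPa viscoelastic gels. The 6 white blood cell markers summed to 6.67 to 9.01 CPM on 2-kPa elastic gels, 6.04 to 7.49 on 2-kPa viscoelastic gels, 5.95 to 7.82 on 20-kPa elastic gels and 5.17 to 6.43 on 20-kPa viscoelastic gels. Of these, Cd68 had 113 to 293 counts per sample, Lyz2 28 to 86, Csf1r 27 to 51, Ptprc 2 to 24 and Adgre1 0 to 8, and Cd3e was at 0 in 11 samples. In bulk RNA, fewer cells of a type and less RNA per cell cannot be told apart.

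The 10 genes took 5.78% to 8.68% of all counts in a sample. Their share was highest on 2-kPa elastic gels (8.41% ± 0.406, SD, n = 3) and lowest on 20-kPa viscoelastic gels (5.98% ± 0.178, n = 3). On 20-kPa elastic gels it was 7.73% ± 0.484 and on 2-kPa viscoelastic gels 7.14% ± 0.174 (SD, n = 3 each). The viscoelastic samples did not overlap the elastic samples of the same stiffness. Fn1 and Spp1 together made up 71.2% to 83.2% of the counts of the 10 genes, so the summed share mostly follows these 2 members.

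**Figure D1:**
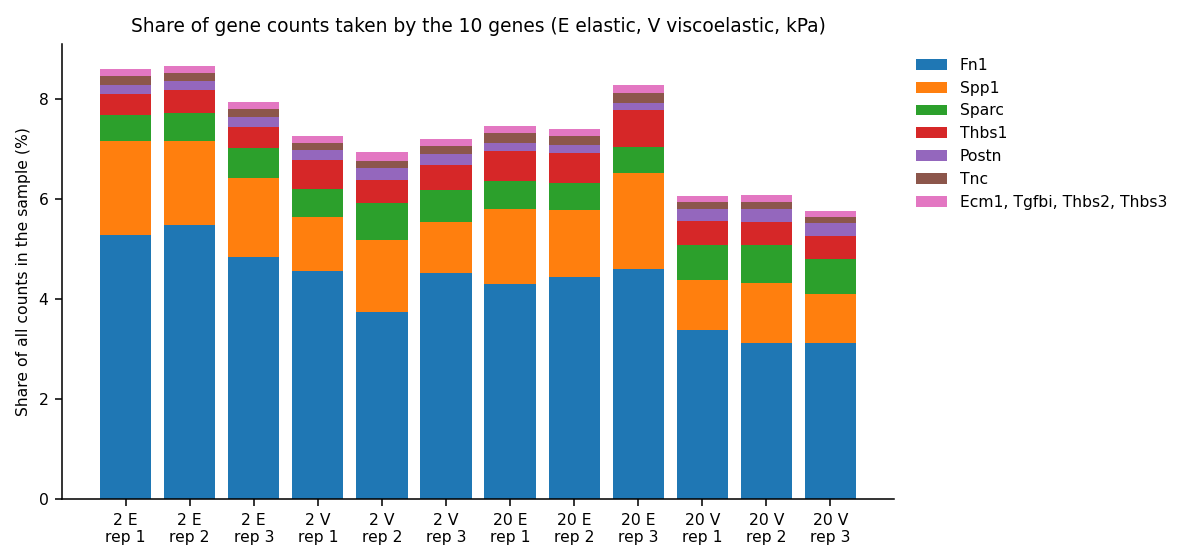
Stacked bars of the share of all counts (%, y axis, from 0) taken by the 10 genes in each of the 12 samples (x axis, E elastic, V viscoelastic, stiffness in kPa). The 3 bars of the 20-kPa viscoelastic gels reach 5.78% to 6.09% and are the shortest, and Fn1 is the largest piece of every bar.

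Fn1 (fibronectin, chr1:71585520-71653200, minus strand) had more counts than any other gene in all 12 samples. Its levels were 53352, 56695 and 48816 CPM on 2-kPa elastic gels, 45758, 37478 and 43963 on 2-kPa viscoelastic gels, 43635, 44298 and 47111 on 20-kPa elastic gels and 33245, 30703 and 31007 on 20-kPa viscoelastic gels. Every 2-kPa elastic sample lay above all the others, every 20-kPa viscoelastic sample lay below all the others, and the 2 middle groups overlapped. At 20 kPa, Fn1 fell on viscoelastic gels to 0.703 of its elastic level (log2 fold change -0.51, SE 0.11, edgeR adjusted p = 0.00345). At 2 kPa the ratio was 0.801 and did not pass (log2 -0.32, SE 0.11, adjusted p = 0.057), although the samples did not overlap. DESeq2 called this difference (log2 -0.32, adjusted p = 0.00145), and with offsets for gene length and GC content it was -0.16 (adjusted p = 0.311). The viscoelastic effects at the 2 stiffnesses differed by -0.19 (SE 0.16, adjusted p = 0.538). Averaged over both stiffnesses, Fn1 fell by 0.41 on the log2 scale (SE 0.08, adjusted p = 0.000994), and with the same offsets it fell by 0.27 (adjusted p = 0.0122). Neither stiffness comparison of Fn1 passed, with log2 fold changes of 20 against 2 kPa of -0.23 on elastic gels (adjusted p = 0.185) and -0.42 on viscoelastic gels (adjusted p = 0.0613), and DESeq2 called both (adjusted p = 0.0456 and 6.61e-05).

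Spp1 (osteopontin, chr5:104435118-104441050, plus strand), an RGD-bearing cytokine-like glycoprotein of bone and healing tissue, ranked between 2 and 5 by counts. Per length of exon it ranked 1 in all 12 samples among 13784 tested genes with a known length, at 10567 CPM per kb on 2-kPa elastic gels against 4532 CPM per kb for Fn1, which ranked 2. Its levels were 18941, 17472 and 15831 CPM on 2-kPa elastic gels, 10626, 14304 and 9832 on 2-kPa viscoelastic gels, 15087, 13330 and 19778 on 20-kPa elastic gels and 9806, 11902 and 9878 on 20-kPa viscoelastic gels. The viscoelastic samples lay below all elastic samples of the same stiffness, and neither stiffness comparison separated the groups. On viscoelastic gels at 2 kPa Spp1 fell by 33.5% (log2 -0.59, SE 0.16, adjusted p = 0.0182). At 20 kPa it fell by 34.5% (log2 -0.61, SE 0.16, adjusted p = 0.00934). The difference between these effects was -0.02 with an SE of 0.23. Spp1 had the widest spread between replicates of the 10 genes, with a coefficient of variation of 20.7% on 20-kPa elastic gels, and the call at 20 kPa was lost without 20-kPa elastic replicate 3 (log2 -0.43, adjusted p = 0.0542). At 2 kPa it was lost without 2-kPa elastic replicate 1 (adjusted p = 0.0799) or without 2-kPa viscoelastic replicate 1 or 3 (adjusted p = 0.0517 and 0.0824). Macrophages are another known source of osteopontin. Of the 4 white blood cell markers tested, Cd68 fell with Spp1 at 2 kPa (log2 -0.57, adjusted p = 0.0453) and Ptprc at 20 kPa (log2 -1.11, adjusted p = 0.0499), and Csf1r and Lyz2 were called in neither comparison. The part of these markers in the Spp1 result was not tested.

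Tgfbi and Postn encode related proteins built from fasciclin domains, and they took different courses. Tgfbi (chr13:56609523-56639562, plus strand), named for its induction by TGF-β, measured 675, 710 and 602 CPM on 2-kPa elastic gels, 343, 466 and 371 on 2-kPa viscoelastic gels, 394, 391 and 473 on 20-kPa elastic gels and 378, 435 and 356 on 20-kPa viscoelastic gels. The 2-kPa elastic samples stood above the rest, and the other 3 groups overlapped each other. It fell by 40.6% on viscoelastic gels at 2 kPa (log2 -0.75, SE 0.11, adjusted p = 0.000547) and from 2 to 20 kPa on elastic gels it fell by 36.7% (log2 -0.66, adjusted p = 0.00165), in 2 comparisons that share the 2-kPa elastic samples. At 20 kPa its log2 fold change was -0.11 (SE 0.11, adjusted p = 0.504). Acan, a chondrocyte marker, fell in the same 2 comparisons (log2 -0.47, adjusted p = 0.00847, and -0.50, adjusted p = 0.00767), and Col9a1 fell with stiffness on elastic gels (log2 -0.69, adjusted p = 0.00496). At 2 kPa the other 3 tested chondrocyte markers were not called (Col2a1 0.01, Sox9 0.01 and Col9a1 -0.15 on the log2 scale). The median of the 4 was -0.07 at 2 kPa and -0.39 for stiffness on elastic gels, and their part in the Tgfbi result was not tested.

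Postn (periostin, chr3:54361109-54391037, plus strand), which binds collagen and fibronectin, measured 1722, 1825 and 2083 CPM on 2-kPa elastic gels, 1947, 2377 and 2212 on 2-kPa viscoelastic gels, 1747, 1551 and 1399 on 20-kPa elastic gels and 2421, 2604 and 2566 on 20-kPa viscoelastic gels. The 20-kPa viscoelastic samples were higher than all others, and both 2-kPa groups overlapped. At 20 kPa it rose 1.62-fold on viscoelastic gels (log2 0.69, SE 0.10, adjusted p = 0.000225), the largest rise among the 10 genes in that comparison. At 2 kPa the log2 fold change was 0.22 (SE 0.10, adjusted p = 0.143), and the difference between the effects, 0.48 (SE 0.14), missed the threshold (adjusted p = 0.0536). That difference passed in 5 other settings, DESeq2 (adjusted p = 0.01) and the length and GC offsets (adjusted p = 0.037) among them. Of the 9 fibroblast markers, 4 also rose on viscoelastic gels at 20 kPa, Dcn, Lum, Col3a1 and Vim, by 0.75, 0.70, 0.26 and 0.24 on the log2 scale (adjusted p = 0.00175, 0.0014, 0.0419 and 0.0299), and Thy1 fell (log2 -0.53, adjusted p = 0.000837). Col1a1 was at 0.03. Of the 4 tested chondrocyte markers 1 was called, Col9a1, which rose (log2 0.87, adjusted p = 0.000441), and Acan was at -0.01. The part of these markers in the rise of Postn was not tested.

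Sparc (osteonectin, chr11:55394500-55423183, minus strand), a collagen-binding protein, ranked between 3 and 5 per length of exon in all samples. It measured 5414, 5793 and 6047 CPM on 2-kPa elastic gels, 5763, 7533 and 6311 on 2-kPa viscoelastic gels, 5765, 5301 and 5353 on 20-kPa elastic gels and 6799, 7313 and 6870 on 20-kPa viscoelastic gels. The groups overlapped at 2 kPa and were apart at 20 kPa. Sparc rose by 27.8% on viscoelastic gels at 20 kPa (log2 0.35, SE 0.10, adjusted p = 0.0135), a call lost without 20-kPa elastic replicate 2 (log2 0.33, adjusted p = 0.0533). At 2 kPa its log2 fold change was 0.18 (adjusted p = 0.205), and the mean over both stiffnesses passed (log2 0.27, adjusted p = 0.00708).

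**Figure D2:**
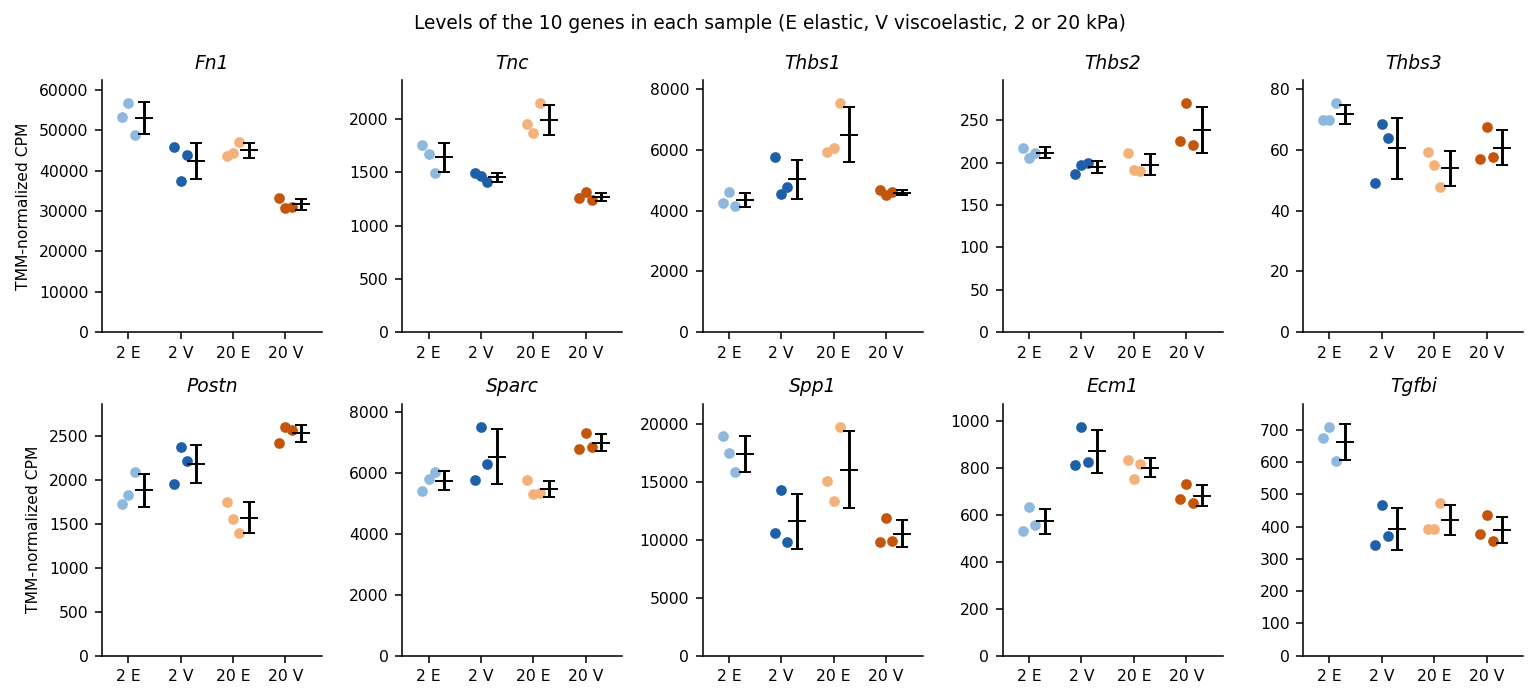
TMM-normalized CPM (y axes, from 0) of each gene in the 12 samples, by gel (x axes, 2 E and 20 E elastic, 2 V and 20 V viscoelastic, in kPa), with points for samples and black marks for the mean ± SD of 3. Fn1 is lowest and Postn highest on the 20-kPa viscoelastic gels, while Tgfbi stands apart only on the 2-kPa elastic gels.

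Tnc (tenascin-C, chr4:63959785-64047015, minus strand), a hexameric protein of remodelling matrix that weakens cell attachment to fibronectin, was the only member of which no groups overlapped. Its levels were 1756, 1674 and 1495 CPM on 2-kPa elastic gels, 1490, 1467 and 1410 on 2-kPa viscoelastic gels, 1951, 1875 and 2150 on 20-kPa elastic gels and 1262, 1311 and 1242 on 20-kPa viscoelastic gels. The groups ran from high to low in the order 20-kPa elastic, 2-kPa elastic, 2-kPa viscoelastic, 20-kPa viscoelastic. Tnc rose by 21.3% from 2 to 20 kPa on elastic gels (log2 0.28, SE 0.08, adjusted p = 0.0264) and fell by 36.1% on viscoelastic against elastic gels at 20 kPa (log2 -0.65, SE 0.08, adjusted p = 0.000109). At 2 kPa it differed by -0.17 (adjusted p = 0.129), and the viscoelastic effect was lower at 20 than at 2 kPa by 0.47 on the log2 scale (adjusted p = 0.0165). The stiffness call was lost without 2-kPa elastic replicate 2 or 3 or 20-kPa elastic replicate 3 (log2 0.29, 0.22 and 0.22, adjusted p = 0.0622, 0.118 and 0.123).

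The 3 thrombospondins, of which Thbs1 and Thbs2 form trimers with anti-angiogenic activity and Thbs3 forms pentamers, differed in level and in direction. Thbs1 (chr2:118111876-118127133, plus strand) measured 4254, 4614 and 4162 CPM on 2-kPa elastic gels, 5750, 4546 and 4775 on 2-kPa viscoelastic gels, 5917, 6044 and 7534 on 20-kPa elastic gels and 4661, 4511 and 4601 on 20-kPa viscoelastic gels. The 20-kPa elastic samples were above all others, and the remaining groups overlapped along the order of their means. Thbs1 rose 1.5-fold from 2 to 20 kPa on elastic gels (log2 0.58, SE 0.11, adjusted p = 0.00275) and fell by 29.3% on viscoelastic against elastic gels at 20 kPa (log2 -0.50, SE 0.11, adjusted p = 0.00296). On viscoelastic gels stiffness changed it by -0.13 (SE 0.11, adjusted p = 0.556). The viscoelastic effect was 0.21 at 2 kPa (adjusted p = 0.187), and the difference of the effects was -0.71 (SE 0.15, adjusted p = 0.011).

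Thbs2 (chr17:14665500-14694235, minus strand) was present at 186 to 270 CPM. It measured 212, 191 and 190 CPM on 20-kPa elastic gels and 225, 270 and 221 on 20-kPa viscoelastic gels, which did not overlap, and rose 1.21-fold (log2 0.27, SE 0.08, adjusted p = 0.0121). On 2-kPa elastic gels it measured 218, 205 and 212 CPM and on 2-kPa viscoelastic gels 186, 197 and 200 (log2 -0.12, adjusted p = 0.278), and the effects differed by 0.40 (adjusted p = 0.0353), a call lost in 7 of the 12 fits that each left out 1 library. The call at 20 kPa was lost without 20-kPa elastic replicate 2 or 3 or 20-kPa viscoelastic replicate 2, the highest sample (log2 0.25, 0.25 and 0.18, adjusted p = 0.0512, 0.0542 and 0.0655). Thbs1 and Thbs2 thus moved in opposite directions between the 20-kPa gels. From 2 to 20 kPa on viscoelastic gels the Thbs2 samples did not overlap. Its log2 fold change there was 0.30 (SE 0.08), which did not pass by edgeR (adjusted p = 0.0537) and was called by DESeq2 (adjusted p = 0.0102).

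Thbs3 (chr3:89215180-89226837, plus strand) was the lowest of the 10 genes, at 47.8 to 75.4 CPM and at least 1937 counts. On elastic gels it measured 69.9, 69.9 and 75.4 CPM at 2 kPa and 59.2, 54.9 and 47.8 at 20 kPa, and fell by 24.8% (log2 -0.41, SE 0.11, adjusted p = 0.0203). The call was lost without 2-kPa elastic replicate 3 or 20-kPa elastic replicate 3 (log2 -0.37 and -0.33, adjusted p = 0.0734 and 0.101). On viscoelastic gels it measured 49.1, 68.4 and 63.9 CPM at 2 kPa and 57.0, 67.6 and 57.8 at 20 kPa, which overlapped. Neither comparison of viscoelastic with elastic gels passed, at log2 -0.25 at 2 kPa (adjusted p = 0.121) and 0.17 at 20 kPa (adjusted p = 0.238). At 2 kPa the samples did not overlap, and 2 other settings put the fall past the threshold. The effects differed by 0.42 (adjusted p = 0.113). Its exons share 318 bases with Mtx1 on the other strand, which had 469 to 630 counts, and the strand setting of the counting is not stated.

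Ecm1 (extracellular matrix protein 1, chr3:95734147-95739569, minus strand), a secreted skin glycoprotein, had the largest difference between the viscoelastic effects at 2 and 20 kPa among the 10 genes. It measured 531, 632 and 555 CPM on 2-kPa elastic gels, 812, 976 and 825 on 2-kPa viscoelastic gels, 833, 754 and 816 on 20-kPa elastic gels and 665, 731 and 649 on 20-kPa viscoelastic gels. The viscoelastic samples lay above the elastic samples at 2 kPa and below them at 20 kPa. At 2 kPa Ecm1 rose 1.52-fold (log2 0.60, SE 0.09, adjusted p = 0.00039), while at 20 kPa its log2 fold change was -0.23 (SE 0.09, adjusted p = 0.0521), which 12 of 21 other settings put past the threshold, DESeq2 among them (adjusted p = 0.016). The difference of these effects was -0.84 (SE 0.12, adjusted p = 0.000852). Stiffness raised it on elastic gels by 39.9% (log2 0.48, adjusted p = 0.00221) and lowered it on viscoelastic gels by 0.35 on the log2 scale (adjusted p = 0.048), a call that lies close to the threshold and was kept in 1 of the 12 fits that each left out 1 library, the one without 20-kPa viscoelastic replicate 2. The same call was lost with only the 6 viscoelastic samples in the fit (adjusted p = 0.124). With the replicate number as a block it was lost too (adjusted p = 0.0599). Averaged over both stiffnesses Ecm1 rose by 13.7% (log2 0.19, adjusted p = 0.0264), which was lost without 2-kPa elastic replicate 1 or 3, 20-kPa elastic replicate 2, 2-kPa viscoelastic replicate 2 or 20-kPa viscoelastic replicate 2 (adjusted p = 0.0549 to 0.0731). It was also lost with the length and GC offsets (log2 0.15, adjusted p = 0.0564), and with these offsets and the replicate block together (adjusted p = 0.0579).

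Among the members, Postn had the largest called rise on viscoelastic gels at 20 kPa and Ecm1 the only one at 2 kPa. They are shown here because both have the letters TATAAA, the core of a TATA box, close before a RefSeq start. The 100 bases before that start follow (GRCm38.p6, 5′ to 3′ along the gene, TATAAA in capitals).
Postn, chr3:54361007-54361106, plus strand: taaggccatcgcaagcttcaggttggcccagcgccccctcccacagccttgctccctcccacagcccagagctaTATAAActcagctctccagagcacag
Ecm1, chr3:95739570-95739669, minus strand: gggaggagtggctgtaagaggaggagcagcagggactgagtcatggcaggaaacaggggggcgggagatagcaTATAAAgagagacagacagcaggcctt
The match begins at position -26 from the start in Postn and at -27 in Ecm1. Postn has another RefSeq window (chr3:54359017-54359316), which holds no TATAAA. Windows from 250 bases before to 50 after the start were found for 8 of the 10 genes (not for Fn1 and Thbs1). TATAAA on either strand was also in those of Tnc (the same bases, at -126 and -205 from the starts of 2 overlapping windows), Spp1 (-211) and Thbs2 (-126). It was in 13.616% of all 32851 windows. That share is for a match at any position, and no share was counted for matches this close to the start. The window of Ecm1 further holds TGACTCA, the letters of an AP-1 site, as its reverse complement at -64, which 5.202% of all windows hold. The search covered 11 windows of members, and the AP-1 letters were in no other of them. Letters of a TEAD site (in 14.663% of all windows) were also searched and were in no member window. Those of another promoter box (in 37.408% of all windows) were in windows of Postn, Spp1, Thbs2 and Thbs3. All these matches are letters in a window and show no binding.

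Read across the genes, viscoelastic gels of 2 kPa changed 3 of the 10 members, raising Ecm1 and lowering Spp1 and Tgfbi. Among all 14542 genes tested, 19.9% were called, 8.77% higher and 11.1% lower, and scaling by total counts turned this split to 1675 higher and 1258 lower without changing the 3 member calls. At 20 kPa, 7 of the 10 members were called, with Thbs2, Postn and Sparc higher and Fn1, Tnc, Thbs1 and Spp1 lower, against 33.5% of all genes (17.4% higher and 16.1% lower, or 2527 and 2339 genes, with 2937 higher and 1901 lower when scaled by total counts and 2321 and 2497 with DESeq2 size factors). Of the 5 members that encode Arg-Gly-Asp, Fn1, Spp1 and Thbs1 fell at 20 kPa, Thbs2 rose and Tgfbi was not called, and of the 5 that do not, Tnc fell, Postn and Sparc rose and Thbs3 and Ecm1 were not called. The median absolute log2 fold change at 20 kPa was 0.43 over the members and 0.19 over all genes tested, and at 2 kPa 0.23 and 0.15. The median signed change of the members was -0.17 at 20 kPa and -0.15 at 2 kPa, against 0.02 and -7.5e-05 over all genes. The samples of both kinds of gel did not overlap for 7 members at 2 kPa and 8 at 20 kPa, where 36.3% and 49.9% of all genes did not. For the mean over both stiffnesses 7 of 10 members passed, with Postn, Sparc and Ecm1 higher and Fn1, Tnc, Spp1 and Tgfbi lower, and 40% of all genes did (19.6% higher and 20.4% lower, with 3538 higher and 2309 lower when scaled by total counts).

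**Figure D3:**
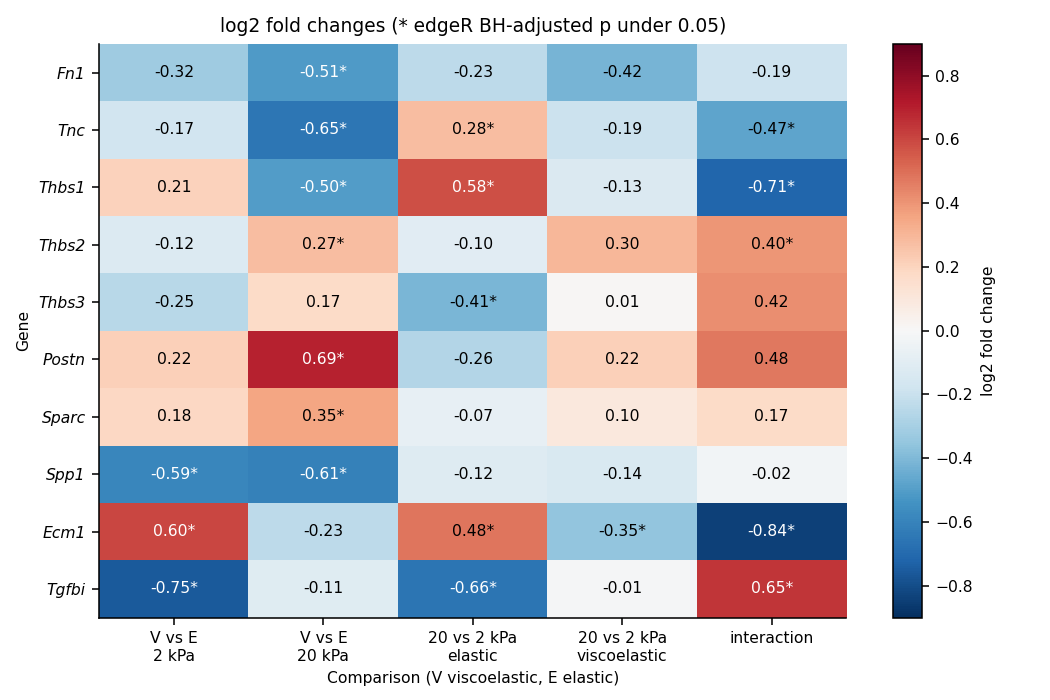
Heat map of the log2 fold change of the 10 genes (rows) in 4 comparisons between gels and in the interaction (columns), with an asterisk where the edgeR adjusted p is under 0.05. The 20-kPa column holds 7 asterisks in both colours, and the column of stiffness on viscoelastic gels holds 1, for Ecm1.

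Stiffness on elastic gels called 5 of the 10 members, Tnc, Thbs1 and Ecm1 higher and Thbs3 and Tgfbi lower at 20 kPa, where 14% of all genes passed (6.81% higher and 7.14% lower). On viscoelastic gels 1 member passed, Ecm1, which was lower, and 2.28% of all genes did (1.58% higher and 0.695% lower, or 230 and 101 genes, and 146 and 104 when scaled by total counts without the 10 genes). None of the members was called higher on 20-kPa viscoelastic gels by edgeR. At an unadjusted p under 0.05, 2 members (Thbs2 and Postn) were higher and 3 (Fn1, Tnc and Ecm1) lower. Such passes were not counted over all genes. DESeq2 called 1 member higher and 2 lower, and over all genes 476 higher and 281 lower. The 2 kPa and 20 kPa samples were apart for 6 members on elastic and 5 on viscoelastic gels, against 35.6% and 22.3% of all genes. The median absolute log2 fold change of the members was 0.27 on elastic and 0.17 on viscoelastic gels, and over all genes it was 0.13 and 0.11.

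The test of the difference between the viscoelastic effects at 20 and 2 kPa, which is the same as the difference between the stiffness effects on the 2 kinds of gel, called 5 of the 10 members and 7.56% of all genes (4.45% higher and 3.12% lower). Tnc, Thbs1 and Ecm1 had the lower effect at 20 kPa, and Thbs2 and Tgfbi the higher. The 4 pairwise comparisons each share a group with 2 of the others, so the calls of a member in different comparisons are not independent. Thbs1 and Ecm1 had positive fold changes at 2 kPa and negative ones at 20 kPa, of which the rise of Ecm1 and the fall of Thbs1 passed their own tests.

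**Figure D4:**
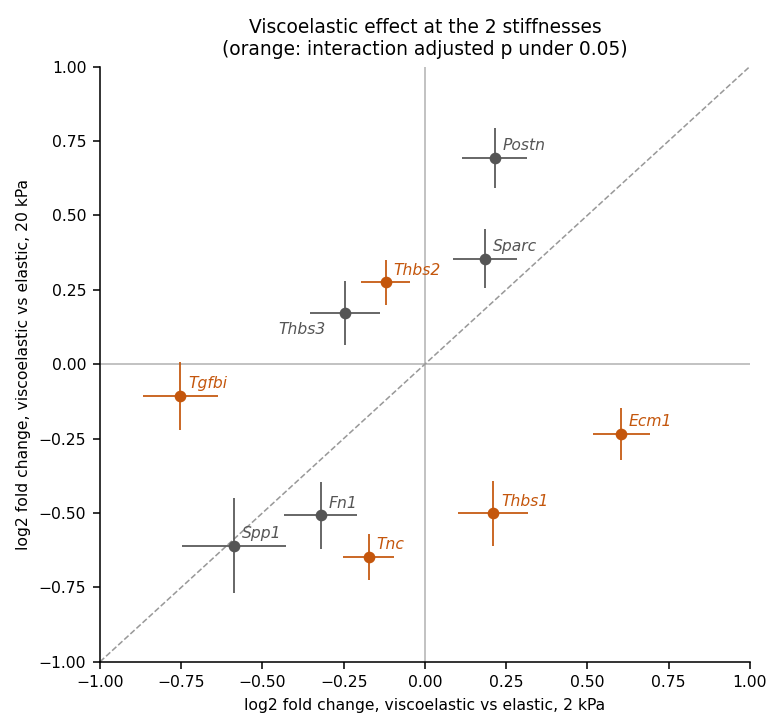
Log2 fold change of viscoelastic against elastic gels at 2 kPa (x axis) and at 20 kPa (y axis) for the 10 genes, with SE bars, an identity line and the genes called in the interaction in orange. Ecm1 and Thbs1 lie right of and below 0, Tgfbi far left near 0 on the y axis, and Spp1 close to the identity line.

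Receptors that bind these proteins, a list of integrin subunits, syndecans and others, included 15 tested genes of 18. By edgeR 6 of them fell and none rose on viscoelastic gels at 2 kPa, and 8 fell and none rose at 20 kPa, where 11.1% and 16.1% of all genes were called lower. The others were not called, and 4 of the 15 at 2 kPa and 3 at 20 kPa had positive fold changes. At an unadjusted p under 0.05, 1 was higher and 9 lower at 2 kPa, and none higher and 9 lower at 20 kPa. DESeq2 called 7 and 9 lower and none higher, and over all genes 1705 and 2566 of 13940 lower. Passes at an unadjusted p were not counted over all genes in any comparison or fit. The largest fall was that of Itgb3, the β3 subunit of the αvβ3 receptor for fibronectin, osteopontin and thrombospondin, with log2 fold changes of -1.19 at 2 kPa (SE 0.17, adjusted p = 0.000369) and -1.102 at 20 kPa (adjusted p = 0.000316). Itgav, which encodes its partner chain, fell by 0.45 and by 0.61 (adjusted p = 0.00866 and 0.00072), and Itga5, the α chain of the main fibronectin receptor, by 0.50 and 0.59 (adjusted p = 0.00521 and 0.000965). On elastic gels Cd44, a hyaluronan receptor that also binds osteopontin, was the single receptor called between stiffnesses by edgeR and rose by 0.49 (adjusted p = 0.0239), while 3 were higher and 2 lower at an unadjusted p under 0.05 and DESeq2 called 3 higher. On viscoelastic gels edgeR called no receptor between stiffnesses (2 lower at an unadjusted p under 0.05, 1 lower by DESeq2), and in the interaction none (3 lower at an unadjusted p under 0.05, 1 lower by DESeq2). Over all genes edgeR called 14% for stiffness on elastic gels, 2.28% for stiffness on viscoelastic gels and 7.56% for the interaction. DESeq2 called 2268, 757 and 1359 genes in the same order. With so few calls over all genes, 0 of 15 receptors sets them apart in neither of the last 2. The median log2 fold change of the list was -0.15 at 2 kPa and -0.27 at 20 kPa, against -7.5e-05 and 0.02 over all genes.

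Other matricellular genes split both ways, as the members did. Of 21 tested of 24, 6 rose and 4 fell on viscoelastic gels at 2 kPa, and 7 rose and 5 fell at 20 kPa, where 19.9% and 33.5% of all genes were called. The median log2 fold change of the 21 genes was 0.11 at 2 kPa and 0.02 at 20 kPa. At 2 kPa the largest rise was that of Ccn1 (log2 0.63, SE 0.15, adjusted p = 0.00801), a CCN protein that supports adhesion through integrins, and the largest fall that of Sparcl1, a relative of SPARC (log2 -1.28, SE 0.17, adjusted p = 0.000209), which was low at 3.30 ± 0.512 CPM on 2-kPa viscoelastic gels (SD, n = 3). At 20 kPa Ecm2 rose most (log2 0.85, adjusted p = 0.000155) and Spock2, a SPARC-family proteoglycan, fell most (log2 -0.59, adjusted p = 0.00909). Stiffness on elastic gels raised 3 and lowered 5 of the list (14% of all genes were called), with Fbln2 (fibulin-2) highest at log2 0.30 (adjusted p = 0.0156) and Sparcl1 lowest at -1.23 (adjusted p = 0.000332). Stiffness on viscoelastic gels lowered 2, Spock2 (log2 -0.77, adjusted p = 0.0239) and Fbln2 (log2 -0.37, adjusted p = 0.027), and raised none by edgeR, where 2.28% of all genes were called. At an unadjusted p under 0.05, 2 of the list were higher and 3 lower there, and DESeq2 called 1 higher and 2 lower. The interaction called 7 of the 21 and 7.56% of all genes.

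**Figure D5:**
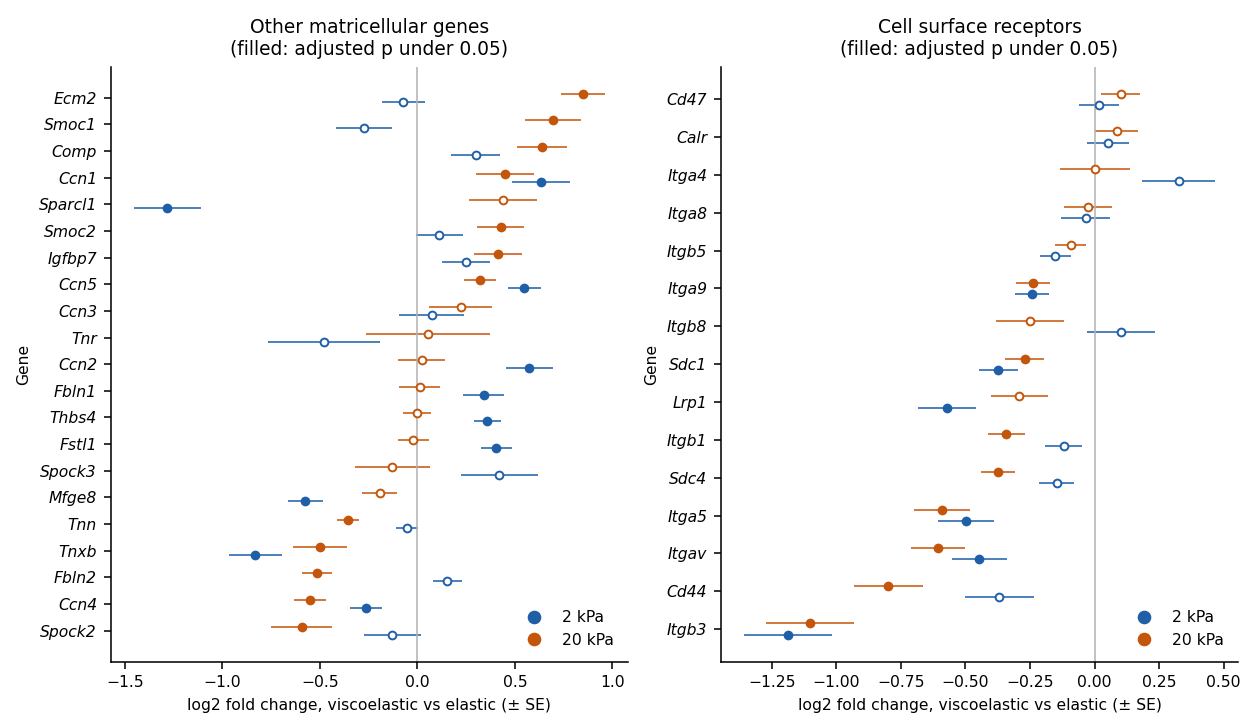
Log2 fold change (x axes, ± SE) of viscoelastic against elastic gels at 2 kPa (blue) and 20 kPa (orange) for the other matricellular genes (left) and the receptors (right), filled where the adjusted p is under 0.05. The filled receptor points all lie left of 0, from Itgb3 at -1.19 upwards, and the filled matricellular points lie on both sides.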

How the data were processed

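RNA of 12 samples was read from 1 table of counts per gene. Per the labels, the authors selected polyA RNA and processed reads with Trimmomatic, STAR and featureCounts on mm10, and they deposited the raw counts without normalization. The annotation release, the strand setting and the handling of multi-mapping reads are not given in the sources used here, so overlapping genes can share counts. Samples were grouped by their titles.

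Differences were tested by the quasi-likelihood method of edgeR 4.0.16 (R 4.3.3) in 1 fit over the 4 groups. Low genes were removed by filterByExpr (minimum count 10, minimum total 15), and libraries were scaled by TMM (factors 0.968 to 1.031). The biological coefficient of variation was 7.50%. Genes with a Benjamini-Hochberg adjusted p under 0.05 over all 14542 genes tested were called. The SE of a log2 fold change is its size over the square root of F. Totals of 36626221 to 43612804 counts leave at least 1937 counts for each of the 10 genes, and counting error is then small beside the spread between samples.

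On data simulated for the 20-kPa comparison with 14542 genes, 72.7% of genes changed 1.5-fold and 88.7% of those changed 2-fold were recovered, with 5.95% false calls. DESeq2 1.42.0 and other settings were tried as alternatives. The labels do not say whether samples with the same replicate number belong together. Over 18 pairs with the same number, correlations of deviations from the group means ran from -0.20 to 0.31, with 2 over 0.1. Both of these were between 2-kPa and 20-kPa viscoelastic gels (0.18 for replicate 1 and 0.31 for replicate 2), where replicate 3 was at 0.05. Pairs with different numbers between these groups ran from -0.24 to 0.08. Between other groups, pairs with different numbers reached 0.23 (20-kPa elastic replicate 1 with 20-kPa viscoelastic replicate 2). Whether samples with the same number are paired was not settled.

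The genes, the lists and the tests were chosen with earlier results of these data known. All 10 genes are described in each comparison. From the 2 related lists, the called gene with the largest rise and the one with the largest fall in each pairwise comparison are named, and Itgav, Itga5, Fbln2 on viscoelastic gels and the single marker genes were added after their values were seen. Exon length, positions and coding sequences came from GENCODE M21 (GRCm38), matched by symbol, and promoter windows from RefSeq (GRCm38.p6).

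Keratinocyte, endothelial, melanocyte and skeletal muscle markers summed to at most 5.07, 2.10, 1.26 and 0.118 CPM in a sample, adipocyte markers to 10.9 CPM and Schwann cell markers to 93.0 CPM (mostly S100b). Smooth muscle and pericyte markers summed to 273.8 to 543 CPM, nearly all Cspg4, which fell on viscoelastic gels at 2 kPa (log2 -0.66, adjusted p = 0.000578) and at 20 kPa (log2 -0.49, adjusted p = 0.00233).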

Additional observations from a re-analysis of the deposited data

Results flagged for a closer look

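The viscoelastic effect at 20 kPa differed from that at 2 kPa for 5 of the 10 genes, by edgeR's test of the difference itself over all 14542 genes. It was lower at 20 kPa for Ecm1 by 0.84 (log2 -0.84, adjusted p = 0.000852), for Thbs1 (log2 -0.71, adjusted p = 0.011) and for Tnc (log2 -0.47, adjusted p = 0.0165). It was higher at 20 kPa for Tgfbi (log2 0.65, adjusted p = 0.0239) and for Thbs2 (log2 0.40, adjusted p = 0.0353). The Ecm1, Thbs1 and Tnc differences passed in all of the refits tried, with adjusted p of at most 0.00428, 0.0323 and 0.0481. The Tgfbi difference was lost in 7 of the 12 fits that each left out 1 library, those without 2-kPa elastic replicate 1 or 2, 20-kPa elastic replicate 1 or 2, 2-kPa viscoelastic replicate 1 or 3 or 20-kPa viscoelastic replicate 2 (log2 0.56 to 0.63, adjusted p up to 0.063). The Thbs2 difference was lost without any 1 of the 3 2-kPa elastic samples, without 20-kPa elastic replicate 2 or 3, 2-kPa viscoelastic replicate 1 or 20-kPa viscoelastic replicate 2 (lowest log2 0.30, adjusted p up to 0.0899). Among the cell type markers the same test called Myh11, of the smooth muscle list (log2 -2.06, adjusted p = 0.00077, at 0.879 to 3.50 CPM), and Thy1 (log2 -0.62, adjusted p = 0.0109) lower at 20 kPa. It called S100b, of the Schwann cell list (log2 1.32, adjusted p = 5.8e-05), Lum (log2 1.09, adjusted p = 0.00297), Col9a1 (log2 1.014, adjusted p = 0.00589) and Fabp4, of the adipocyte list (log2 0.90, adjusted p = 0.0173), higher. Their part in the differences of the members was not tested. No group held 4 or more samples, so no sample was tested for standing apart from its group.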

How the results depend on the processing

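Of the 28 calls made for single members over the 6 comparisons, 18 passed in each refit tried and none changed sign. The count of members called stayed within 1.5 times under DESeq2 size factors and with length and GC offsets in all comparisons. Testing every gene with a count gave 5 members at 2 kPa in place of 3, with 3061 genes called of 23149 in place of 2892 of 14542. An adjusted p below 0.01 left 3 for stiffness on elastic gels and 1 for the interaction. How many of all genes passed that stricter threshold was not counted. Stiffness on viscoelastic gels called 1 member, and 2 with total counts alone, 3 with every gene tested, 3 with DESeq2, and 0 with an adjusted p below 0.01 or with only the samples compared (4 in that fit at an unadjusted p under 0.05). Over all genes, total counts alone called 351 for stiffness on viscoelastic gels, against 331 in the main fit. Leaving out 1 library at a time gave 3 to 5 members for stiffness on elastic gels (3 without 2-kPa elastic replicate 3 or 20-kPa elastic replicate 3), 0 to 1 for stiffness on viscoelastic gels and 3 to 7 for the interaction. Over all genes these fits called 1063 to 2369, 9 to 351 and 670 to 1182 genes in the same order. The fits that gave 3 members on elastic gels called 1360 and 1063 genes, against 2029 with all samples.

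A paired fit that took the replicate number as a block called 3, 8, 5, 0, 7 and 4 members in the order 2 kPa, 20 kPa, stiffness on elastic, stiffness on viscoelastic, mean and interaction, and with the block and length and GC offsets together stiffness on viscoelastic gels also gave 0 (4 and 3 members at an unadjusted p under 0.05). In these 2 fits the Thbs2 difference between the viscoelastic effects was 0.39 and 0.38 (adjusted p = 0.0618 and 0.0721). Over all genes the fit with the block alone called 2569, 4485, 1731, 154, 5475 and 845 genes in the same order. Nothing in the labels ties equal numbers to an animal or a culture.

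The fold changes that changed sign under another setting were all uncalled. Without 20-kPa elastic replicate 2, Spp1 was at 0.0015 for stiffness on elastic gels (-0.29 to 0.0015 over the 12 libraries left out). For stiffness on viscoelastic gels, Thbs3 was at -0.00435 with total counts without the 10 genes, at -0.00855 with only the samples compared and at -0.12 to 0.10 leaving out 1 library, Spp1 at -0.24 to 0.041 and Tgfbi at -0.10 to 0.13. Thbs3 ran from -0.086 to 0.027 for the mean effect and Spp1 from -0.14 to 0.16 for the interaction. The cause of these changes was not tested. Over all genes, stiffness on viscoelastic gels called 331 genes and 757 by DESeq2, 653 with every gene tested, 171 with length and GC offsets, 154 and 77 with the block without and with those offsets, 38 with only the 6 samples compared, and 9 without 20-kPa viscoelastic replicate 3.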

Other observations

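Ratios of members within a sample do not depend on the scaling of libraries. The 2 fasciclin-domain genes, a pair chosen after their values were seen, had 2.86 ± 0.519 counts of Postn for each count of Tgfbi on 2-kPa elastic gels and 5.58 ± 0.443 on 2-kPa viscoelastic gels, and 3.79 ± 0.757 and 6.53 ± 0.617 on the 20-kPa gels (SD, n = 3 each). The lowest viscoelastic sample at 2 kPa (5.10) lay above the highest elastic sample (3.46), and at 20 kPa these were 5.99 and 4.44. Counts of Fn1 for each count of Postn were 28.5 ± 4.38 on 2-kPa elastic, 19.7 ± 3.87 on 2-kPa viscoelastic, 29.1 ± 4.38 on 20-kPa elastic and 12.5 ± 1.05 on 20-kPa viscoelastic gels (SD, n = 3 each). At 2 kPa these groups overlapped, with the lowest elastic sample at 23.43 and the highest viscoelastic sample at 23.51. At 20 kPa they were apart, at 24.97 and 13.73. For Thbs1 over Thbs2 the ratio was highest on 20-kPa elastic gels, at 33.1 ± 6.03, and was 19.4 ± 2.34 on 20-kPa viscoelastic, 20.6 ± 1.70 on 2-kPa elastic and 25.9 ± 4.30 on 2-kPa viscoelastic gels (SD, n = 3 each).

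Single libraries also differed within their groups. 20-kPa viscoelastic replicate 2 had the highest level of its group for 8 of the 10 genes, and 2-kPa viscoelastic replicate 2 for 6 of 10. Each of these 2 samples had the lowest level of its group for the same 2 genes, Fn1 and Thbs1. This was not counted over all genes tested, so it cannot be said to be particular to the 10 genes.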
